A study of Sus scrofa with 15 samples.

Results

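Keratins are the intermediate filament proteins of epithelial cells, and 8 of them that mark stratified (layered) epithelium were followed in RNA of pig penile corpus cavernosum: KRT4, KRT5, KRT6A, KRT10, KRT13, KRT14, KRT15 and KRT17. They were picked out by symbol, with earlier results of these data known. Of the 26654 genes in the tables, 5 carry one of these symbols, namely KRT4, KRT5, KRT6A, KRT10 and KRT15. KRT13, KRT14 and KRT17 were not analysed here. The 15 libraries form 5 groups of 3. They are labelled normal and defect, then implantation A and implantation B, and last ECs+ implantation, and all carry the species pig (Sus scrofa) and the tissue penile corpus cavernosum. The labels give no strain, age, sex, time, animal or agent. They do not say what was implanted, what ECs stands for, or what sets implantation A apart from implantation B. The study's design compares normal, defect and implantation A in pairs, and ECs+ implantation with implantation B. A description line of each ECs+ implantation sample carries the name of a normal one, and only titles and column names place these 3 in their group.

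The corpus cavernosum is erectile tissue of smooth muscle, blood spaces lined by endothelium and fibrous septa, and has no stratified epithelium of its own, whereas the skin of the penis and the lining of the outer urethra do. Keratins work in pairs of one type I and one type II chain, and the pair changes as a cell moves up from the basal layer. The roles given here are known from human and mouse. KRT5 is the basal chain that pairs with KRT14, and KRT15 is a type I chain of basal cells. KRT4 pairs with KRT13 in the layers above the basal one in moist epithelia such as the oesophagus, and KRT10 pairs with KRT1 above the basal layer of cornifying skin. KRT6A pairs with KRT16 or KRT17 and is known for its rise at wound edges and in fast-growing epithelium.

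In the Sscrofa11.1 build the type II genes lie on chromosome 5, KRT6A at 17830147 to 17851113, KRT5 at 17862047 to 17868397 and KRT4 at 18091742 to 18099086. The type I genes lie on chromosome 12, KRT15 at 21124605 to 21130247 and KRT10 at 21641263 to 21645642. Both clusters hold near-identical copies, so the counts of KRT6A in particular are uncertain to the extent that neighbours share its reads.

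Total gene counts ran from 17234169 to 19644793 in 13 libraries, while defect 1 and defect 2 held 207769 and 250178. In those 2 libraries 3 counts, taken as the floor of detection, are worth 14.4 and 12 CPM (counts scaled to library size), which leaves the abundant keratins measurable and KRT10 not. KRT15 rested on 7 and 8 counts there, not far above that floor, so its small SD in defect understates the counting error. Nothing in the labels says that the 3 libraries of a group come from separate animals, so the p-values measure the spread between libraries, which may be technical. Levels are given as TPM, which corrects for transcript length and depth, with the SD over n = 3 libraries. Fold changes and adjusted p-values are those of edgeR's quasi-likelihood test on counts with Benjamini-Hochberg adjustment over all genes tested, called at an adjusted p under 0.05.

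Stratified keratin RNA was found in 4 of the 5 groups and was close to missing from the ECs+ implantation group. The summed level of the 5 keratins came to 1456 ± 55.7 TPM in normal, 3631 ± 123 TPM in defect, 3150 ± 33.1 TPM in implantation A, 3290 ± 42.7 TPM in implantation B and 7.33 ± 0.916 TPM in ECs+ implantation. The 5 keratins took 0.188% of all gene counts in normal, 0.423% in defect, 0.362% in implantation A, 0.373% in implantation B and 0.00111% in ECs+ implantation. The normal libraries ran from 1397 to 1507 TPM, and no library of the other 4 groups fell within that range. Against normal, the sum as a share of counts was 2.25 times as high in defect, 1.93 times in implantation A and 1.98 times in implantation B. In such bulk tissue RNA, fewer epithelial cells and less keratin RNA per cell cannot be told apart, so these values rank the groups by epithelial keratin RNA and do not count cells.

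**Figure D1:**
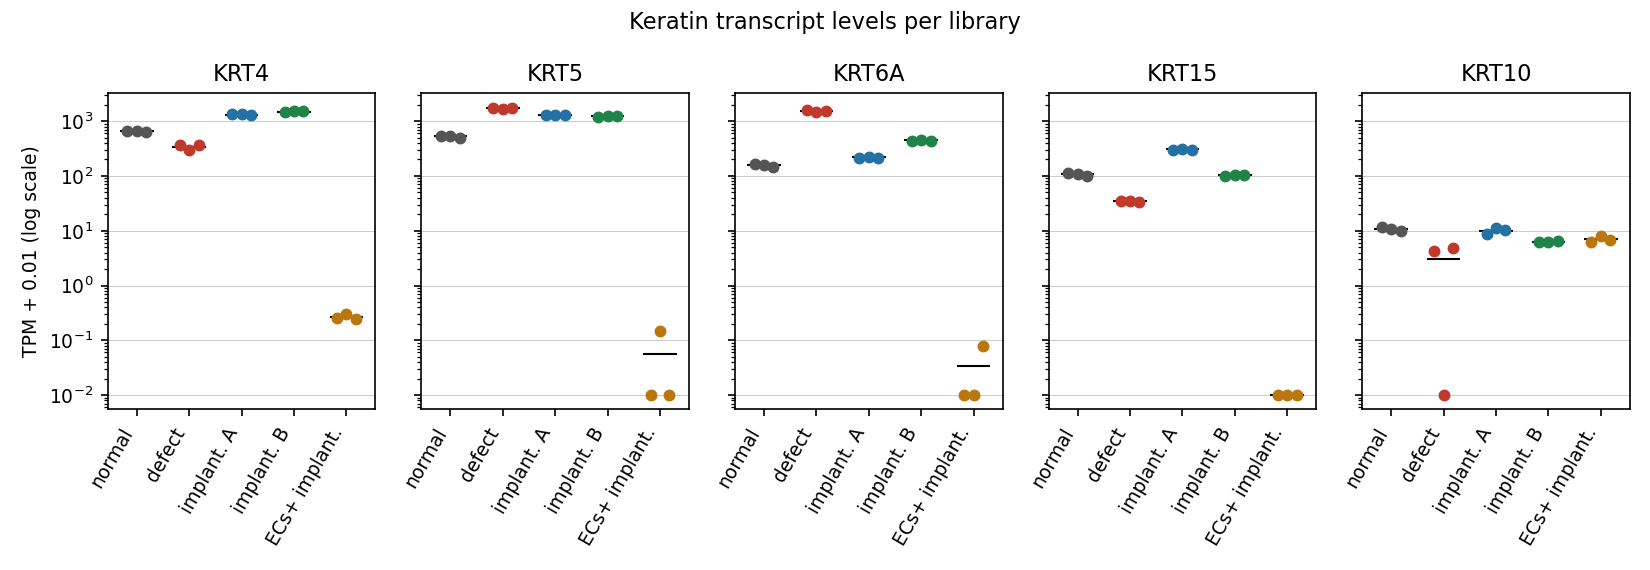
Level of each keratin (TPM, log axis as labelled) in every library, grouped by sample group, 1 point per library. KRT4, KRT5, KRT6A and KRT15 drop to the bottom of the scale in ECs+ implantation while KRT10 stays between 6.24 and 7.88 TPM there, and KRT6A is highest in defect.

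KRT5, the basal chain, stood at 544, 535 and 499 TPM in the 3 normal libraries, 1752, 1668 and 1717 TPM in defect, 1289, 1306 and 1285 TPM in implantation A, 1207, 1243 and 1246 TPM in implantation B, and 0, 0.136 and 0 TPM in ECs+ implantation. The order was defect, implantation A, implantation B, normal and ECs+ implantation, and no 2 neighbours in it overlapped. KRT15, the other basal chain, did not follow KRT5. It stood at 113, 109.7 and 101 TPM in normal, 35.6, 34.4 and 33.8 TPM in defect, 304, 314 and 303 TPM in implantation A, 100.2, 106 and 103 TPM in implantation B, and 0 TPM in each ECs+ implantation library. KRT15 was thus highest in implantation A and lowest, among the groups with keratin, in defect, where KRT5 was highest. Normal and implantation B overlapped for KRT15.

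KRT4, the chain of the upper layers of moist epithelia, stood at 673, 653 and 639 TPM in normal, 363, 299.3 and 365 TPM in defect, 1331, 1332 and 1303 TPM in implantation A, 1485, 1516 and 1508 TPM in implantation B, and 0.247, 0.288 and 0.240 TPM in ECs+ implantation. All 5 groups were separate, with the 2 implantation groups without the ECs+ label on top. KRT6A, the chain known from wound edges, stood at 165, 157 and 147 TPM in normal, 1596, 1503 and 1516 TPM in defect, 216, 221 and 216 TPM in implantation A, 444, 453 and 440.1 TPM in implantation B, and 0, 0 and 0.0700 TPM in ECs+ implantation. Its groups were also all separate, and every defect library stood above every other library of the study.

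KRT10, the chain of cornifying skin, was a minor keratin in every group but one. It stood at 11.95, 10.7 and 9.74 TPM in normal, 8.88, 11.01 and 10.3 TPM in implantation A, 6.12, 6.19 and 6.58 TPM in implantation B, and 6.24, 7.88 and 6.88 TPM in ECs+ implantation. Defect held 4.32, 0 and 4.88 TPM, from 1, 0 and 95 counts, so only the deep library of that group measured it. Normal overlapped implantation A, and ECs+ implantation overlapped implantation B. KRT10 was the only one of the 5 with a level in ECs+ implantation within the range of other groups. KRT1, the known partner of KRT10, held 1 count in normal, 2 in defect and 4 in implantation B over the 3 libraries. Implantation A and ECs+ implantation held 0 counts of KRT1. Which cells made the KRT10 RNA was not tested.

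The make-up of the measured keratin RNA differed between groups, most plainly in defect and in ECs+ implantation. The shares leave out unnamed entries next to the keratin genes, some of which carried as many reads. Of the summed keratin TPM in normal, KRT4 made up 45.02% ± 0.661, KRT5 36.1% ± 0.389, KRT6A 10.7% ± 0.182, KRT15 7.42% ± 0.154 and KRT10 0.739% ± 0.0490. In defect KRT4 made up 9.41% ± 0.778, KRT5 47.2% ± 0.442, KRT6A 42.4% ± 0.618 and KRT15 0.954% ± 0.0269. Defect libraries were thus rich in the wound-edge chain and poor in the chain of the upper moist layers. In implantation A the shares were 42.0% ± 0.263 for KRT4, 41.1% ± 0.150 for KRT5, 6.91% ± 0.0471 for KRT6A and 9.74% ± 0.106 for KRT15. In implantation B they were 45.7% ± 0.111 for KRT4, 37.4% ± 0.258 for KRT5, 13.5% ± 0.194 for KRT6A and 3.13% ± 0.0465 for KRT15. In ECs+ implantation KRT10 made up 95.6% ± 0.657 of what little was left.

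**Figure D2:**
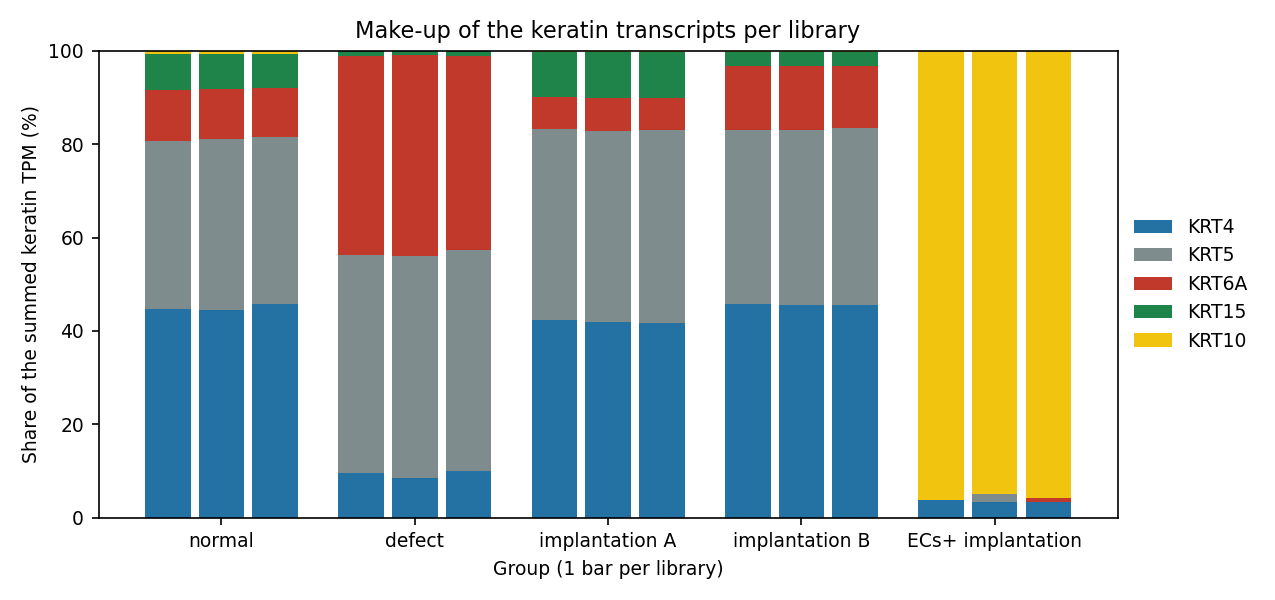
Share of the summed keratin TPM (percent) taken by each of the 5 keratins in every library. KRT4 and KRT5 lead in normal, implantation A and implantation B, KRT5 and KRT6A lead in defect, and KRT10 makes up 95.6% in ECs+ implantation.

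Ratios between keratins need no scaling between libraries. The ratio of KRT4 to KRT5 in TPM was 1.25 ± 0.0309 in normal, 0.1997 ± 0.0177 in defect, 1.02 ± 0.00965 in implantation A and 1.22 ± 0.0106 in implantation B. Defect stood 6.26-fold below normal in it, and it was 5.13-fold higher in implantation A than in defect. The ratio of KRT6A to KRT5 was 0.297 ± 0.00497 in normal, 0.899 ± 0.0143 in defect, 0.168 ± 0.000730 in implantation A and 0.362 ± 0.00762 in implantation B. Defect stood 3.02-fold above normal in this ratio, and implantation A 1.77-fold below normal. The ratio of KRT15 to KRT5 was 0.206 ± 0.00299 in normal, 0.0202 ± 0.000489 in defect, 0.237 ± 0.00271 in implantation A and 0.0835 ± 0.00134 in implantation B. Defect stood 10.2-fold below normal, with KRT15 at 7, 8 and 558 counts in the defect libraries, so the SD there understates the counting error. Each pair of groups was fully separate for each ratio, with a two-sided exact permutation p of 0.1, the smallest that 3 against 3 libraries can give, apart from KRT4 to KRT5 in implantation B against normal, which overlapped (exact p = 0.2).

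**Figure D3:**
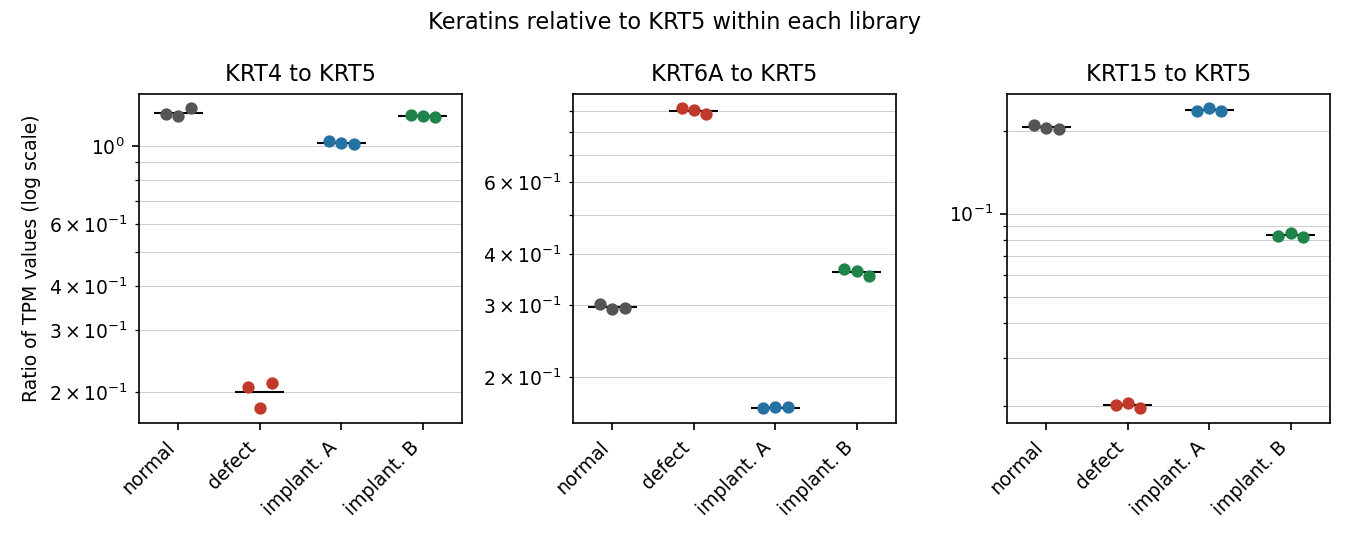
Ratio of KRT4, KRT6A and KRT15 to KRT5 (TPM over TPM, log axes) in the 12 libraries of the 4 groups with keratin, 1 point per library. Defect stands apart from the rest in all 3 panels, lowest for KRT4 and KRT15 and highest for KRT6A.

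Between defect and normal, KRT6A and KRT5 rose while KRT4, KRT15 and KRT10 fell. KRT6A was higher by 3.38 ± 0.074 on the log2 scale, a 10.4-fold rise (adjusted p = 3.16e-57). KRT5 was higher by 1.79 ± 0.079 (adjusted p = 2.94e-35). KRT15 fell by 1.48 ± 0.1004 (adjusted p = 1.02e-23) and KRT4 fell by 0.74 ± 0.088 (adjusted p = 6.24e-12). KRT10 fell by 0.97 ± 0.202 (adjusted p = 9.37e-06), but the call was lost without defect 3 (log2 change -2.49, adjusted p = 0.11). All 5 measured keratins were thus called, against 63.9% of all 17855 genes tested, 32% higher and 31.9% lower. The share called over all genes is so high that the count alone says little about keratins, and the sizes and directions carry the description. Without the 2 shallow defect libraries the log2 changes were 3.49 for KRT6A, 1.92 for KRT5, -1.47 for KRT15 and -0.63 for KRT4.

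Genes of the desmosomes, the junctions that hold epithelial cells together, were mostly higher in defect. Of the 12 desmosome genes tested, 11 rose and 0 fell, with a median log2 change of 1.58 against -0.0479 over all genes. DSG3, a cadherin of the lower layers of stratified epithelium, rose by 2.34 (10.2 TPM in normal, 50.2 TPM in defect). PERP, a desmosomal membrane protein, rose by 1.87, and DSC2, another desmosomal cadherin, by 2.14. Of 13 basal layer and hemidesmosome genes 8 rose and 3 fell (median 1.02). Those that rose included COL17A1, a collagen that spans the basal membrane (2.31), LAMA3, a laminin chain (1.60), and TP63, the transcription factor of stratified epithelium (1.92), whereas the 3 that fell were ITGB4, an integrin chain of the hemidesmosome (-0.93, from 251 to 120 TPM), PLEC, a linker protein also made by muscle (-0.61), and ITGA3, another integrin chain (-0.24). Of 22 genes of general epithelial identity 14 rose and 1 fell (median 0.544), among them CDH1, the epithelial cadherin (1.60), and SFN, a 14-3-3 protein of stratified epithelium (1.42). Without defect 3 the genes that rose numbered 6 in the desmosome list and 4 in the identity list, with 0 that fell in either.

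Genes of the cornified envelope, the protein shell of the outermost cells, moved apart in defect. Of 12 tested, 6 rose, 1 fell and 5 were not called (median 0.543), and without defect 3 the counts were 1 and 1. The low-count filter was passed in all 3 libraries of both groups by 6 of the 12. TGM3, a transglutaminase that cross-links the envelope, rose by 6.89, from 0.0688 to 10.5 TPM, a change that rests on 6 counts in normal and 200 in defect. CRNN, or cornulin, an envelope protein of oesophagus-type epithelium, fell by 0.85, from 33.0 to 15.6 TPM. Of 3 other keratins of stratified epithelium tested 2 rose and 1 fell. KRT78, a keratin of the upper layers, rose by 3.65, from 0.892 to 11.06 TPM. KRT80 rose by 0.56 on scaled counts, but its mean TPM was 1.93 in defect and 2.59 in normal. KRT24 fell by 4.76, from 114 counts in normal to 1 in defect, so the size of its fall rests on that 1 count.

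Genes of secretory epithelium were mostly lower in defect. Of 10 secretory genes tested 7 fell and 1 rose, but 7 of the 10 passed the low-count filter in all libraries of normal and not of defect, so the count is a description only. WFDC2, a secreted protein of glandular epithelium, fell by 4.32, from 62.2 to 0.966 TPM, and the mucin MUC1 fell by 1.72. The 1 that rose was LTF, or lactoferrin, which neutrophils also make (3.73). Of 4 simple epithelial keratins KRT7, KRT8 and KRT18 fell by 0.95, 0.34 and 1.02, and KRT19 was not called. The direction of KRT8 depended on the scale, its mean TPM being 21.6 in defect and 17.4 in normal. That count was 1 with DESeq2 and 0 with voom or without defect 3, where KRT7, KRT8 and KRT18 hold few or 0 counts in the shallow libraries. EPCAM, an adhesion protein of many epithelia named after its values were seen, fell by 1.35, from 28.5 to 7.46 TPM. It held 0 counts in a shallow defect library, so it too passed the low-count filter in all libraries of normal and not of defect.

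From defect to implantation A, KRT6A and KRT5 fell while KRT15, KRT4 and KRT10 rose. This comparison shares the defect libraries with the one before, so the opposite signs are not independent of it. KRT6A fell by 3.01 ± 0.073 (adjusted p = 2.09e-53) and KRT5 fell by 0.60 ± 0.079 (adjusted p = 5.63e-10). KRT15 was higher by 2.88 ± 0.099 (adjusted p = 1.81e-42), KRT4 by 1.64 ± 0.088 (adjusted p = 3.98e-29) and KRT10 by 0.77 ± 0.203 (adjusted p = 0.000888). The KRT10 call was lost with DESeq2 (adjusted p = 0.0965) and without defect 3. All 5 were called, against 41.8% of all genes, 20.4% higher and 21.4% lower. Without the 2 shallow libraries the log2 changes were -3.11 for KRT6A, -0.72 for KRT5, 2.87 for KRT15 and 1.55 for KRT4.

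Desmosome genes fell more often than they rose from defect to implantation A, 7 against 1 of 12 (median log2 change -0.387 against 0.0207 over all genes). This balance depended on the scale, with 3 that rose and 1 that fell on log2 of TPM plus 1, and 0 and 1 without defect 3. DSG1, a cadherin of the upper layers, fell by 1.04, DSC3 by 0.95 and DSG3 by 0.66. Among basal layer genes 6 fell and 3 rose (median -0.135), and COL17A1 fell by 1.43. COL7A1, the anchoring fibril collagen, fell by 1.05. In the cornified envelope list 5 fell and 3 rose (median -0.182), or 1 and 4 without defect 3, and TGM3 fell by 6.13 while CRNN rose by 1.93. Of the 22 epithelial identity genes 18 rose and 1, SFN, fell by 0.47 (median 0.731), and without defect 3 8 rose and 0 fell. EPCAM, CLDN1, GRHL2, OVOL1, OVOL2 and SPINT1 held 0 counts in a shallow defect library. These genes thus passed the low-count filter in all libraries of implantation A and not of defect, so the count is a description only. Among those that rose were ELF3, an epithelial transcription factor (2.004), and the tight junction proteins CLDN4 (1.23) and CLDN7 (1.28). Secretory genes rose in 6 of 10 cases and fell in 2, where 6 of the 10 passed the filter in all libraries of implantation A and not of defect. WFDC2 was higher by 5.997, MUC4 by 3.65 and MUC1 by 3.91. The simple keratins KRT8, KRT18 and KRT19 rose by 1.61, 2.57 and 1.60, and KRT7 was not called (0.13, adjusted p = 0.724). KRT7 and KRT18 held 0 counts in a shallow defect library, so they too passed the filter in all libraries of implantation A and not of defect.

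Against normal, implantation A held more of 4 of the 5 keratins. KRT15 was higher by 1.40 ± 0.058 (adjusted p = 1.14e-36), KRT5 by 1.19 ± 0.071 (adjusted p = 2.12e-26), KRT4 by 0.91 ± 0.069 (adjusted p = 1.35e-20) and KRT6A by 0.37 ± 0.067 (adjusted p = 1.14e-06). KRT10 was not called, at -0.21 ± 0.116 (adjusted p = 0.111). Over all genes 64.5% were called, 32.2% higher. The KRT10 change passed the threshold with another scaling (log2 change -0.27 with RLE size factors), so its status depends on that choice.

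Desmosome and epithelial identity genes were mostly higher in implantation A, and other epithelial lists were mixed. Desmosome genes rose in 11 of 12 cases (median log2 change 1.41 against -0.0248 over all genes), with PERP higher by 1.53, DSG3 by 1.68 and DSC2 by 1.56. Epithelial identity genes rose in 21 of 22 cases, and 1 fell (median 1.29). Examples were CDH1 (1.93, from 12.3 to 50.3 TPM) and EHF, a transcription factor (1.95). Of the 13 basal layer genes 8 rose, 2 fell and 3 were not called (median 0.286), with TP63 higher by 2.19. In the cornified envelope list 5 rose and 4 fell (median 0.463), with SCEL (sciellin) higher by 1.72 and EVPL (envoplakin) by 1.20, while SBSN (suprabasin) fell by 1.999. Of 10 secretory genes 5 rose, 2 fell and 3 were not called (median 0.284), with MUC4 higher by 3.11.

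In ECs+ implantation 4 of the 5 keratins were nearly missing. The 3 libraries, with 54503437 counts in all, held 22 counts of KRT4, 4 of KRT5, 2 of KRT6A and 0 of KRT15. KRT4 was 4158-fold higher in implantation B, with a 95% exact interval of 2746 to 6635 from counting error only. KRT5 was 19892-fold higher (7769 to 73008), and KRT6A, from those 2 counts, 13346-fold (3694 to 110204). KRT15 was at least 1710-fold higher in implantation B, against a floor of 3 counts over the ECs+ implantation group. In edgeR the 4 fell, with adjusted p of 6.53e-72 for KRT4, 1.4e-44 for KRT5, 7.76e-63 for KRT6A and 2.62e-47 for KRT15. These 4 entered the test only through implantation B, so that they were called is no support in itself. KRT10 was higher in ECs+ implantation by 0.40 ± 0.124 (adjusted p = 0.00333), from 171, 211 and 194 counts, although by TPM the 2 groups overlapped and the test on TPM lost the call (log2 change 0.13). In all, 75.8% of 17204 genes were called, 37.8% higher and 38.1% lower.

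Several other genes of stratified epithelium were also close to 0 in ECs+ implantation, while some kept a clear level. All 11 desmosome genes tested fell, of which 8 passed the low-count filter in ECs+ implantation as well. The other 3, DSG1, DSG3 and DSP, passed only through implantation B, so their fall was set by the filter and supports nothing. JUP, the plakoglobin found in desmosomes and other junctions, fell by 1.21 but still stood at 69.8 TPM, against 192 TPM in implantation B, and PKP1, a plakophilin, fell by 1.71, to 22.6 TPM. DSP, the desmoplakin that ties keratin filaments to the desmosome, held 61.2 TPM in implantation B and 0.0579 TPM in ECs+ implantation, an 857-fold ratio from 17350 and 20 counts (interval 555 to 1403, counting error only). PERP fell by 6.53, to a level near 3 TPM. TP63 held 18.7 TPM in implantation B and 0.0348 TPM in ECs+ implantation, from 5 counts, and also passed only through implantation B. Of 22 epithelial identity genes 21 fell and 1 was not called, with 12 that passed the filter in both groups. CDH1 fell by 6.32, from 45.4 to 0.474 TPM, and KLF5, a transcription factor of many epithelia, fell by 3.20 but still stood at 24.4 TPM. Of the 9 cornified envelope genes tested 8 fell, and only EVPL, PPL and SBSN passed the filter in both groups. EVPL fell by 4.79, PPL (periplakin) fell by 1.57 and still stood at 62.9 TPM, and SBSN was not called (0.25, adjusted p = 0.0722). JUP, PKP1, KLF5, PPL and SBSN were named here after their values were seen.

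The basal layer list and the simple keratins were mixed in size and direction. In the basal layer list 10 fell and 3 rose (median -1.23). TP63 and BNC1, with 5 and 2 counts in ECs+ implantation, are among the 10 and passed the low-count filter only through implantation B. Their fall was thus set by the filter and supports nothing. PLEC fell by 0.17, while the integrin chain ITGA6, also known from endothelium, rose by 0.41. The direction of ITGB4, also known from nerve sheath, depended on the scale, with a log2 change of 0.15 on scaled counts and mean TPM of 106 in ECs+ implantation and 115 in implantation B. ITGA3 did likewise, with 0.17 on scaled counts and mean TPM of 16.3 and 17.3. All 4 simple keratins tested fell (median -0.91), KRT7 by 3.54 (7.98 to 0.572 TPM), KRT19 by 1.14, KRT18 by 0.68 and KRT8 by 0.44, and KRT8 still stood at 12.1 TPM. EPCAM, the identity gene that was not called, was at 18.5 TPM in ECs+ implantation and 22.7 TPM in implantation B (adjusted p = 0.588).

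**Figure D4:**
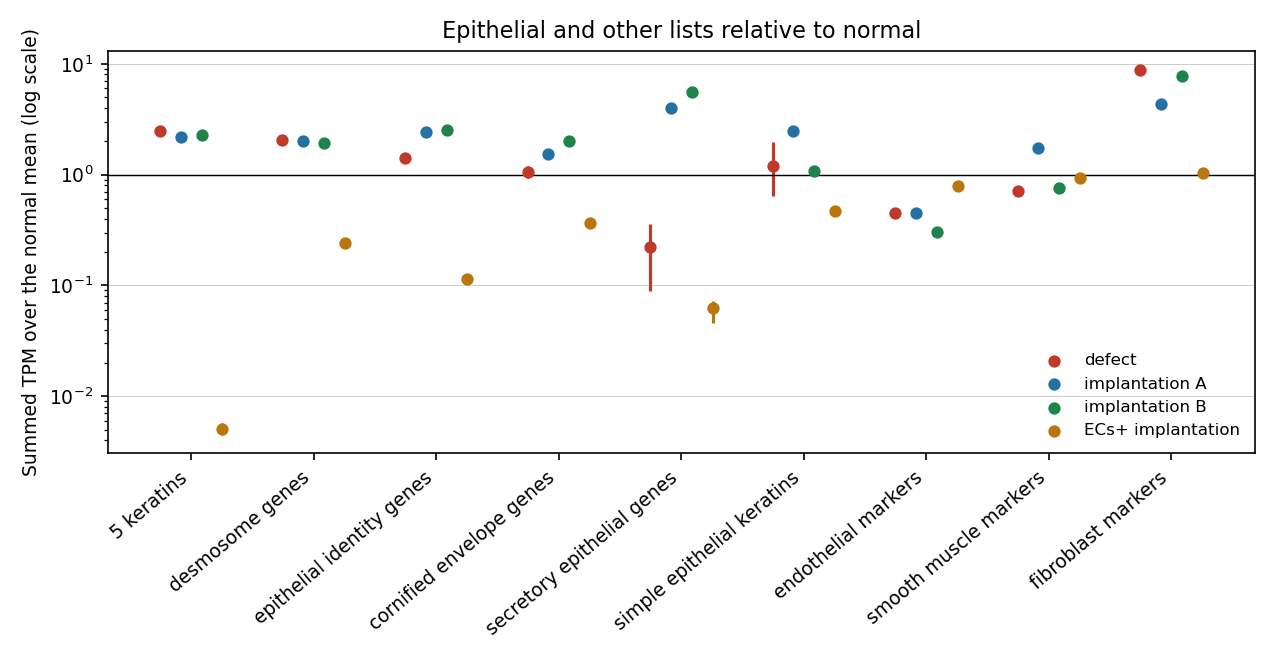
Group mean of the summed TPM of gene lists for epithelium and other cell types, divided by the normal mean, on a log axis. Every group but normal is drawn, with a line from its lowest to its highest library. In ECs+ implantation desmosome genes stand at 0.241 of the normal mean (99.5 against 413 TPM). Endothelial markers stand at 0.782 of it there (2053 against 2626 TPM).

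Against normal, where all 5 keratins were measured in every library, ECs+ implantation was also near 0 for KRT4, KRT5, KRT6A and KRT15. KRT4 was 2083-fold higher in normal (1376 to 3324), KRT5 9746-fold (3806 to 35771), KRT6A 5379-fold (1489 to 44424), and KRT15 at least 2070-fold. These 4 fell in the fit of all 15 libraries, which they entered only through the other groups, so those calls are no support in themselves. KRT10 was not called in that fit, at -0.23 (adjusted p = 0.0683). That KRT10 value passed the threshold with RLE size factors (-0.33, adjusted p = 0.00791), with library size only, and without normal 2, normal 3 or ECs+ implantation 2, and the TPM of the 2 groups did not overlap. In that comparison 71.3% of 18316 genes were called, 35.7% higher and 35.6% lower. The labels name no batch, and any difference in handling between the groups the design does not pair cannot be told apart from the groups themselves.

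Implantation B and implantation A, also outside the design's pairs, held sums of keratin that were close by library totals, with another make-up. Over normal these sums were 1.98 and 1.93 times as high, but 2.46 and 2.01 times with TMM factors. By library totals too, the libraries of the 2 groups did not overlap. KRT6A was higher in implantation B by 1.25 ± 0.048 (adjusted p = 1.5e-35) and KRT4 by 0.40 ± 0.048 (adjusted p = 3.9e-11). KRT15 fell by 1.36 ± 0.048 (adjusted p = 1.21e-37) and KRT10 fell by 0.46 ± 0.126 (adjusted p = 0.00137). KRT5 was higher by 0.14 ± 0.051 (adjusted p = 0.0147), a direction that turned to -0.10 when scaled by library size only and to -0.07 on TPM. All 5 were called, against 50.8% of all genes, 27.2% higher and 23.6% lower. Implantation B stood between implantation A and defect for KRT6A.

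Against normal, implantation B held more KRT6A (log2 change 1.62 ± 0.049, adjusted p = 7.76e-43), more KRT5 (1.34 ± 0.052, adjusted p = 2.44e-35) and more KRT4 (1.31 ± 0.048, adjusted p = 2.13e-37). KRT10 fell by 0.67 ± 0.125 (adjusted p = 2.01e-06), and KRT15 was not called, at 0.036 ± 0.050 (adjusted p = 0.528), a direction that turned with other scalings. The KRT10 call was lost with limma on log2 of TPM plus 1 (adjusted p = 0.32) or plus 0.1 (0.663). Of the 5, 3 rose and 1 fell, where over all genes 73.8% were called, 37.1% higher and 36.7% lower. Against defect, implantation B was higher in KRT4 (2.02 ± 0.064, adjusted p = 3.86e-40) and KRT15 (1.52 ± 0.086, adjusted p = 1.47e-25). KRT6A fell by 1.78 ± 0.055 (adjusted p = 4.82e-42), KRT5 fell by 0.47 ± 0.059 (adjusted p = 5.7e-10), and KRT10 was not called (0.31 ± 0.205, adjusted p = 0.265). The KRT5 call was lost with limma on log2 of TPM plus 0.1 (adjusted p = 0.178). The background was 29.5%, with 15.7% higher and 13.8% lower. Both implantation groups without the ECs+ label thus stood on the same side of defect for KRT4, KRT5, KRT6A and KRT15, in comparisons that share the defect libraries.

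The same 4 keratins were called lower in ECs+ implantation against defect and against implantation A. As they entered these tests only through the other groups, the calls are no support in themselves. KRT4 was 1026-fold higher in defect (677 to 1638, counting error only) and 3744-fold higher in implantation A (2473 to 5975). KRT15 was at least 573-fold higher in defect and at least 5230-fold higher in implantation A. KRT10 was higher in ECs+ implantation than in defect by 0.74 ± 0.199 (adjusted p = 0.00062), a call lost without defect 3 (adjusted p = 0.161), with voom (0.138) and on log2 of TPM plus 1 (0.0537) or plus 0.1 (0.0991). It was not called against implantation A (-0.026 ± 0.117, adjusted p = 0.851). The background was 62.3% against defect, 32.6% higher and 29.7% lower, and 70.4% against implantation A, 36.9% higher and 33.5% lower.

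Genes whose levels ran most closely with the summed keratins were sought over the 13 deep libraries among 12913 genes, as a description. The 10 closest, with Pearson r from 0.997 to 0.999, were S100A12, DSP, LYPD3, S100A8, ADAM10, FXYD3, TNS4, LAD1, SFN and S100A9. Such r values rest mainly on the gap between ECs+ implantation and the other 4 groups. SFN held 114 TPM in normal, 258 TPM in defect, 238 TPM in implantation A, 290 TPM in implantation B and 2.28 TPM in ECs+ implantation. PERP ranked 36, CDH1 121 and TP63 160. KRT19 ranked 2089 (r = 0.668), KRT8 3660 (r = 0.373) and EPCAM 6292 (r = -0.12), well below the genes of stratified epithelium.

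S100A8, S100A9 and S100A12 are calcium-binding proteins of neutrophils that stratified epithelium also makes. S100A8 held 884 TPM in normal, 2919 TPM in defect, 2494 TPM in implantation A, 2893 TPM in implantation B and 0.906 TPM in ECs+ implantation. The neutrophil genes outside that family, CSF3R, MMP8 and CXCR2, summed to 0.719 TPM in normal, 9.38 TPM in defect, 1.34 TPM in implantation A, 3.39 TPM in implantation B and 1.14 TPM in ECs+ implantation. Neutrophil marker sums in the usual list, 5170 TPM in normal and 16.2 TPM in ECs+ implantation, were thus carried by the S100 genes.

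Markers of some other cell types moved with the keratins in part. All 8 listed markers of fibroblasts, of smooth muscle, of endothelium and of macrophages had counts in each group. Fibroblast markers summed to 5535 TPM in normal, 48582 TPM in defect, 24100 TPM in implantation A, 43175 TPM in implantation B and 5717 TPM in ECs+ implantation. Over the 4 groups with keratin these sums ranked as the keratin sums did. Single fibroblast markers went both ways between ECs+ implantation and normal, 5 higher and 3 lower, against 35.7% and 35.6% of all genes. The collagen COL1A1 stood at 884 and 2384 TPM and the proteoglycan DCN at 1617 and 411 TPM. Macrophage markers summed to 470 TPM in normal, 961 TPM in defect, 362 TPM in implantation A, 973 TPM in implantation B and 356 TPM in ECs+ implantation. All 8 macrophage markers were higher in defect than in normal (median log2 change 1.02), where 32% of all genes were higher. All 8 fell from defect to implantation A (median -1.47), where 21.4% of all genes fell. The 2 comparisons share the defect libraries. In both, the direction of AIF1 depended on the scale, its mean TPM being 21.7 in normal, 21.1 in defect and 22.3 in implantation A. AIF1 held 0 counts in a shallow defect library. Smooth muscle markers summed to 3619 TPM in normal, 2577 TPM in defect, 6340 TPM in implantation A, 2765 TPM in implantation B and 3356 TPM in ECs+ implantation. Endothelial markers summed to 2626 TPM in normal, 1194 TPM in defect, 1192 TPM in implantation A, 793 TPM in implantation B and 2053 TPM in ECs+ implantation. Markers of endothelium and smooth muscle, the cell types the tissue label implies, were thus present in every group. Melanocyte, urothelial and hair keratin lists stayed low, with sums in normal of 23.2, 4.83 and 4.78 TPM. The part of these cell types in the keratin differences was not tested.

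Several unnamed entries next to the keratin genes carried as many reads as the named ones, and were looked at after their values were seen. They are numbered LOC entries with no symbol, given here without a name. LOC110255312 on chromosome 12 at 21074965 to 21079393 stood at 167, 153 and 149 TPM in normal, 2366, 2334 and 2363 TPM in defect, 245, 236 and 253 TPM in implantation A, 721, 734 and 727 TPM in implantation B, and 0, 0 and 0.0479 TPM in ECs+ implantation. Its order of groups was that of KRT6A. It was higher in defect than in normal by 3.996 on the log2 scale (adjusted p = 1.68e-61) and fell by 3.46 from defect to implantation A (adjusted p = 5.4e-57). LOC100515166 at 21139296 to 21143556, next to KRT15, held 1020 TPM in normal, 1146 TPM in defect, 2451 TPM in implantation A, 1990 TPM in implantation B and 0.413 TPM in ECs+ implantation. LOC100515166 was the entry of the 8 looked at with the most TPM in normal, and it differed between defect and normal by 0.30 on the log2 scale (adjusted p = 0.00143), far less than LOC110255312. LOC100515685 was the only one of the 8 with a clear level in ECs+ implantation, 11.03 TPM against 6.74 TPM in normal. LOC100737483, next to KRT6A, held 14.4 TPM in normal and 6.74 TPM in implantation B, unlike KRT6A.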

How the data were processed

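The libraries of 15 pig samples were made from polyadenylated RNA with a TruSeq kit, per the labels' protocols. Per the submitters' processing notes, the tools were HISAT2, HTSeq, fastp and DESeq2, with the build Sscrofa11.1 and no roles or versions. The sources used here do not say whether counting used strand and reads of genes that overlap may be mixed. The authors deposited raw gene counts and TPM values for the same 26654 genes. Coordinates are those of RefSeq for Sscrofa11.1, which held 99.91% of the symbols.

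Counts were analysed with edgeR 4.0.16 in R 4.3.3 (filterByExpr, TMM, robust glmQLFit, glmQLFTest, two-sided). Normal, defect and implantation A shared a fit of 9 libraries, implantation B and ECs+ implantation one of 6, and the 6 other pairs one of all 15. The SE of a log2 change comes from the fitted model. Summed levels use library totals; summed keratin levels and lists have no test. Intervals are exact at 95% and cover counting error only.

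The keratins and gene lists were chosen with earlier results of these data known. Named genes are the keratins, up to 3 list members with the smallest p in a comparison and the highest by TPM. Named too are the 10 closest to the summed keratins. Chosen after seeing values were EPCAM, JUP, PKP1, PPL, KLF5, SBSN, ITGA3, ITGA6, ITGB4, COL1A1 and DCN. So were KRT1, AIF1, CLDN1, GRHL2, OVOL1, OVOL2, SPINT1, the neighbouring LOC entries and the ranks beyond the 10 closest. As alternatives, the tests were rerun with DESeq2 1.42.0, limma 3.58.1 (voom with quality weights, and trend on log2 of TPM plus 1 or 0.1), other scalings and filters, a replicate block and leaving libraries out. On simulated counts every gene changed 4-fold was recovered in the 4 design comparisons. Of genes changed 1.5-fold, 68% were recovered in defect vs normal, 78% in implantation A vs defect and 90% in implantation A vs normal. In ECs+ implantation vs implantation B 94% were recovered. False calls made up 3.26% to 6.67% of the calls. The simulation used the same dispersion for all genes and changed only well-counted genes.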

Additional observations from a re-analysis of the deposited data

How the results depend on the processing

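KRT4, KRT5, KRT6A and KRT15 kept their direction and call in the 4 design comparisons under all alternatives run. Of the values of single keratins under alternatives, 1122 kept direction and side of the threshold, 30 lost the call, 9 gained one and 14 turned direction. KRT10 in defect vs normal lost its call with TPM plus 0.1 (-3.06), voom (-1.39) and without defect 3 (-2.49).

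For implantation B vs implantation A, 2 keratins instead of 5 were called on TPM (each of 3 settings), and KRT5 turned to -0.10 with library sizes only and to -0.0705, -0.07055 and -0.0705 on TPM. KRT15 in implantation B vs normal (not called) turned to -0.0768 with RLE size factors, -0.28 with library sizes only, -0.0768 with DESeq2, -0.0690, -0.0696 and -0.0690 on TPM, -0.10 without normal 2 and -0.17 without normal 3 (range with 1 library left out -0.17 to 0.13). KRT10 in ECs+ implantation vs implantation A turned to 0.0354 without implantation A 2 and to 0.0427 without ECs+ implantation 1 (range -0.11 to 0.0427). The cause was not tested.

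The summed keratins over normal were 2.61 with TMM factors, 2.49 by TPM and 1.85 without KRT5 in defect, 2.01, 2.16 and 1.76 in implantation A, and 2.46 and 2.26 (TMM, TPM) in implantation B. In ECs+ implantation the ratio was 0.00503 by TPM and 0.000276 without KRT10. Leaving out 1 library gave 2.20 to 2.30, 1.90 to 1.95, 1.95 to 2.01 and 0.00551 to 0.00621 in that order.

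Same-numbered libraries did not deviate together (correlations from -0.0218 to 0.0357 over all libraries). As the libraries of a group may be technical, such values cannot tell whether the numbers pair libraries. With a replicate block no keratin call changed, and 10663 genes instead of 11407 were called in defect vs normal. Over all genes in that comparison 7438 were called with DESeq2, 6747 on filtered TPM, 5300 with voom and 3521 without defect 3, and in implantation A vs defect 3792, 4610, 1741 and 1455 instead of 7465. In implantation A vs normal 6878 were called with DESeq2 and 3274, 2935 and 3203 on TPM, instead of 11522. In implantation B vs implantation A the counts were 6195, 3446, 2977 and 3314 instead of 9307, and in implantation B vs normal 8454, 7369 and 7072 on TPM instead of 13511. In ECs+ implantation vs normal they were 8116, 7341 and 6779 on TPM instead of 13056. Scaling by library size only moved the median of all genes to -0.414 in defect vs normal, 0.326 in implantation A vs defect and 0.256 in ECs+ implantation vs implantation B. Depth limits KRT10, and to a lesser extent KRT15, in defect 1 and 2.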
